A study of Caenorhabditis elegans with 2 samples.

Results

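The C. elegans histone genes are described here in a ChIP-seq study of SNPC-1.2: every gene of the annotation with a name beginning his- and the biotype protein_coding, 72 of 19973 nuclear protein-coding genes. DNA bound by the SNPC-1.2-eGFP fusion was recovered with an anti-GFP antibody from whole larvae of the L4 stage (48 hours, synchronised by starving L1 larvae after bleaching). The strain was RW12251, whose CRISPR insertion at snpc-1.2, st12251[snpc-1.2::TY1::EGFP::3xFLAG], is on chromosome III. There was 1 group with 2 biological replicates, and no second genotype, stage or treatment. Animals were taken whole, so each peak averages over all tissues of the larva, and no untagged library was analysed here.

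Histones H2A, H2B, H3 and H4 form the nucleosome core around which DNA is wrapped, and the linker histone H1 binds where DNA enters and leaves it. Most core histone genes are transcribed by RNA polymerase II as chromatin is copied, often from a short interval between a divergent pair, and lack introns. Their messages end in a conserved stem-loop in place of a poly(A) tail, whereas genes of replacement variants such as H3.3 usually have introns and a poly(A) tail. SNAPc, the complex that activates small nuclear RNA genes, is best known for binding their promoters, and SNPC-1.2 is a worm subunit of it.

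By their RefSeq products the 72 genes were 17 H2A, 16 H2B, 20 H3, 16 H4 and 1 H1 gene (his-24), with 2 genes (his-39 and his-73) listed only as having a histone domain. The H3 genes included 5 of the H3.3 kind (his-69, his-70, his-71, his-72 and his-74). There were 64 genes without introns and 8 with. A 16-base stem-loop was found within 100 bp after the stop codon of 56 genes, none of which has an intron. In 51 genes it read GGCCCTCTTTAGGGCC, and in 4 H2B genes of chromosome V (his-52, his-54, his-22 and his-20) GGCCCTCTTAAGGGCC. The stem-loop of the remaining gene, his-67, had neither sequence. Of the 72 genes, 61 lay in 11 clusters, defined as 3 or more histone genes with no gap above 10 kb, and 62 formed 31 divergent pairs. These were 16 H2A-H2B pairs, 14 H3-H4 pairs and 1 H2A-H4 pair (his-67/his-68). The annotated 5' ends of the pairs enclosed 227 to 368 bp, with a median of 258 bp.

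The sequences between the 5' ends of 4 divergent pairs are shown because the values below turn on them (ce11, forward strand, credited to RefSeq). The intervals of his-63/his-64 (IV:11406862-11407115) and his-60/his-59 (IV:7487993-7488248) held a thresholded summit. That of his-46/his-45 (IV:11326330-11326587) is a near copy of the first and held none, and that of his-2/his-1 (V:16042284-16042519) has unique sequence and held none. All 4 lie between an H3 and an H4 gene. Capitals mark TATAAA and CTCCNCCT on either strand (TTTATA and AGGNGGAG on the other).
his-63/his-64: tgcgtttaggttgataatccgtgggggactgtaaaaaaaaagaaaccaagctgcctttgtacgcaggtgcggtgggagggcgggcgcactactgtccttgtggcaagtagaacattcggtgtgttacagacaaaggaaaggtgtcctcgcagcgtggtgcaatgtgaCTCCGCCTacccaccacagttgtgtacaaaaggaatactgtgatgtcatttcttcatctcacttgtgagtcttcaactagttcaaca
his-60/his-59: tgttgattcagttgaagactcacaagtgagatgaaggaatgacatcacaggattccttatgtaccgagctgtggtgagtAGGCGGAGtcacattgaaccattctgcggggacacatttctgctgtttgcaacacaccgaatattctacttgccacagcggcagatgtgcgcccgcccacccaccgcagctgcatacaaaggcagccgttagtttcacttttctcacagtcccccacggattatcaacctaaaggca
his-46/his-45: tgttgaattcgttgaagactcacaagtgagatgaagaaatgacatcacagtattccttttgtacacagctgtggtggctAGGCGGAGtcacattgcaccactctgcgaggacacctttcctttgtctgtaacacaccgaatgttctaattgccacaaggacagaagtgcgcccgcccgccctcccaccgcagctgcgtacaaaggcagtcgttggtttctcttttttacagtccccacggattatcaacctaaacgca
his-2/his-1: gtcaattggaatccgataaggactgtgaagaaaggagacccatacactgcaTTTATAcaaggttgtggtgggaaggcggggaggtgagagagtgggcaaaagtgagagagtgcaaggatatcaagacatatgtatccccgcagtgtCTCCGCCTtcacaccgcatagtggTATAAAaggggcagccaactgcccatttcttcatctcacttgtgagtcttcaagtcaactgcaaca

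A gene is called occupied where a peak summit of a thresholded list (irreproducible discovery rate, IDR, of at most 0.01) lay within 250 bp of its annotated 5' end. The signal is the peak caller's own value of a peak, with no scale stated, and is read within a list only. Medians over all nuclear peaks were 107 in the whole-series list (2829 peaks), 78.6 in replicate 1's own list (1411) and 78.2 in replicate 2's (1737). The depth behind a peak is unknown, since the lists carry no read numbers.

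Summits stood at 9 of the 72 histone genes in at least 1 of the 4 thresholded lists and at 4 in all of them. The 9 were 3 H3 genes (his-63, his-59 and his-72), 3 H4 genes (his-67, his-64 and his-60), 2 H2A genes (his-68 and his-61) and 1 H2B gene (his-62). In the replicates' own lists 8 of 72 histone genes (11.1%) were occupied in replicate 1 and 6 (8.33%) in replicate 2, a mean of 9.72% ± 1.96 (SD, n = 2). For all protein-coding genes the shares were 1.22% and 1.54%, a mean of 1.38% ± 0.230 (SD, n = 2). Both histone shares lay above both background shares, and 2 replicates of 1 group allow no test between conditions. The whole-series list held 6 histone genes (8.33%, exact 95% interval 3.12% to 17.3%), against 2.48% of protein-coding genes. The conservative list held 7 (9.72%), against 2.36%. The intervals cover the counting of genes only, and since partners share a summit the genes are not independent.

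**Figure D1:**
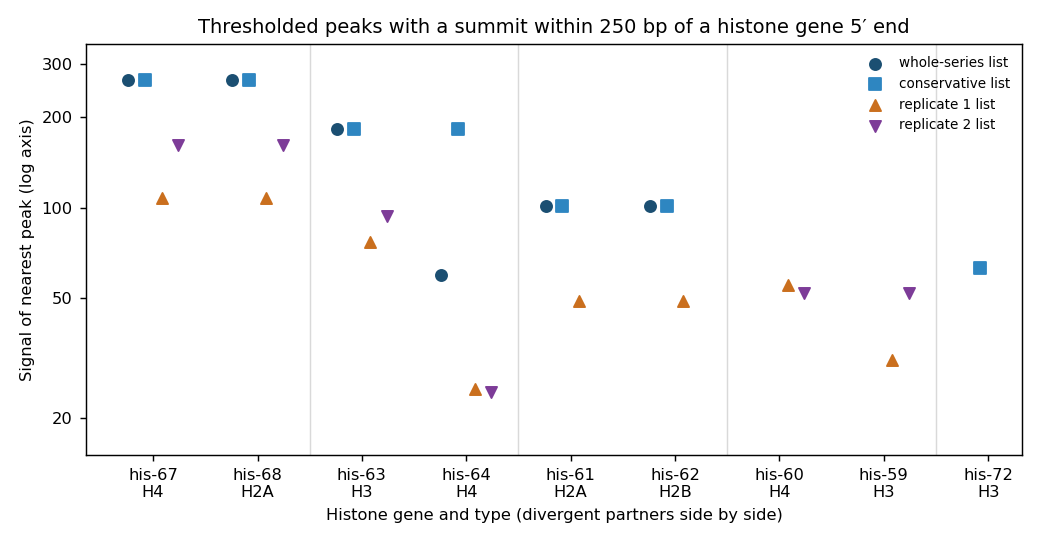
Signal of the nearest thresholded peak (log axis) at the 9 histone genes with a summit within 250 bp in any thresholded list, with divergent partners side by side and 1 marker per list. his-67 and his-68 have the highest values in every list, and his-72 has a value in the conservative list only.

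The divergent H4 gene his-67 (I:9988452-9988763) and H2A gene his-68 (I:9989132-9989515) on chromosome I shared 1 summit in every list. Its signal was 108 in replicate 1, 162 in replicate 2 and 265 in the whole-series list, where it ranked 302 of 2829. It lay 158 bp before his-68 and 211 bp before his-67, and the summits of the 2 replicates were 3 bp apart. At 211 bp his-67 was the occupied gene nearest to the 250 bp limit in the whole-series list. This pair lies outside all clusters, and 100% of the 50-base words between its 5' ends occur once in the genome.

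The H3 gene his-63 (IV:11406451-11406861, 1 exon) had signals of 76.9 in replicate 1, 93.4 in replicate 2 and 182 in the whole-series list. The summits lay 88 bp before it in replicate 1 and 94 bp before it in the other lists, which is base 94 of the his-63/his-64 sequence above. Its partner, the H4 gene his-64 (IV:11407116-11407427), had a second and weaker peak just inside the gene in the replicate and whole-series lists, 38, 55 and 40 bp from its 5' end. The signals there were 25.0 in replicate 1, 24.3 in replicate 2 and 59.7 in the whole-series list, under which 5.16% of all peaks fell. The IDR of this whole-series peak was 0.159 in the ranked whole-series list, which compares the true replicates, and 0.0018 in the second ranked whole-series list. The conservative list lacked this second peak, and the summit nearest to his-64 there was the shared one at 161 bp before it. An unclassified ncRNA gene, F22B3.19, has its annotated 5' end 68 bp from the his-63 summit, so a 5' end of another gene is nearer to it than that of his-63.

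The other called pairs lie side by side in the cluster of his-61, his-62, his-60 and his-59 on chromosome IV. The H2A gene his-61 (IV:7485834-7486217) and H2B gene his-62 (IV:7486545-7486916) shared a summit of signal 101 in the whole-series list, 170 bp before his-61 and 158 bp before his-62. In replicate 1 the shared summit had a signal of 48.8, lower than all but 7.73% of the list. Replicate 2's own list had none within 250 bp, and its ranked list held a call of 58.2 at an IDR of 0.0265. The call between this pair thus passed the IDR limit in 1 replicate's own list only.

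The H4 gene his-60 (IV:7487681-7487992) and H3 gene his-59 (IV:7488249-7488659) showed the reverse. Both replicates' own lists had a summit between them, with a signal of 31.1 in replicate 1 and 51.8 in replicate 2, 3 bp apart at bases 134 and 137 of the sequence above. Replicate 1 had a further peak of 55.2 inside his-60, 70 bp from its 5' end, and replicate 2 one of 68.9 at 289 bp. In the whole-series thresholded list the nearest summits were 253 bp inside his-60 (signal 117) and 428 bp from the 5' end of his-59 (signal 177). his-60 therefore missed the limit by 3 bp there, and was the gene nearest outside it, followed by his-59 and, at 434 bp, his-16. The ranked whole-series list held the shared call with a signal of 64.6 at an IDR of 0.0159, and the second ranked whole-series list gave 0.037, both above the limit of 0.01.

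Genes of the H3.3 kind, whose product replaces H3 outside DNA replication, and the H1 gene his-24 had no whole-series peak within 250 bp. his-72 (H3.3) was called in the conservative list only, with a signal of 62.9 at 129 bp before the gene, above 5.48% of that list's peaks. Each replicate's ranked list held a call before the gene, with a signal of 39.4 at 139 bp in replicate 1 and 40.1 at 47 bp in replicate 2, at IDRs of 0.115 and 0.164. A separate whole-series peak of 83.3 lay 548 bp inside his-72, with its summit 42 bp from the 5' end of the snoRNA gene Y49E10.36. The signal at his-24 in the ranked whole-series list was 66.3, at 14 bp inside the gene, the highest among the 63 histone genes with no thresholded call. Its IDR was 0.0126 there and 0.055 in the second ranked whole-series list, and the replicates' ranked lists gave 36.3 and 38.7.

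By type, 2 of 17 H2A genes (11.8%), 1 of 16 H2B genes (6.25%), 1 of 20 H3 genes (5.00%) and 2 of 16 H4 genes (12.5%) were occupied in the whole-series list. The exact 95% intervals, 1.46% to 36.4%, 0.158% to 30.2%, 0.127% to 24.9% and 1.55% to 38.3%, overlap throughout. The replicates' own lists held 2 and 1 H2A genes, 1 and 0 H2B genes, 2 and 2 H3 genes, and 3 and 3 H4 genes. All 6 whole-series genes were members of divergent pairs (6 of 62), with none among the 10 unpaired genes. A count of 0 of 10 allows up to 30.8%, above the 8.33% of all histone genes and the 2.48% of all protein-coding genes. The replicates' own lists also had none of the 10. The conservative list had 1 of 10 unpaired genes (his-72) and 6 of 62 paired ones. In the ranked whole-series list 5 of 10 unpaired and 17 of 62 paired genes had a call. A link between pairing and occupancy was not tested.

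In the whole-series list both chromosome I genes, which share a summit, and 4 of 22 genes of chromosome IV (18.2%, 5.19% to 40.3%) were occupied. None of 14 on chromosome II, 3 on chromosome III, 27 on chromosome V (upper limit 12.8%) and 4 on chromosome X was. Among all protein-coding genes 5.91% were occupied on chromosome IV and 1.44% on chromosome V. The shares were 2.50% on chromosome I, 1.71% on II, 2.99% on III and 0.732% on X. Chromosome IV also carries the dense piRNA gene clusters. In 54 windows of 100 kb there, each with at least 50 piRNA genes, lie 96.0% of its piRNA genes and none of its 22 histone genes. Outside those windows 4.47% of chromosome IV protein-coding genes were occupied.

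Many histone genes are copies of one another. There were 51 distinct gene sequences among the 72, 35 genes had an identical copy, and the largest identical sets held 4 genes (his-51, his-53, his-21 and his-19 for H2A, and their H2B partners). Sequence uniqueness, the share of 50-base words within 250 bp of a gene's 5' end that are found at 1 place in the genome, had a median of 10.5% for histone genes, against 100% for all protein-coding genes. It was under 50% for 56.9% of histone genes, against 2.66% of all protein-coding genes. Reads from such copies cannot be placed on 1 of them by sequence, and how the alignments treated reads with several matches was not stated in the deposited notes.

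All 9 genes called in any thresholded list were among the 31 with at least 50% unique words, with values of 65.0% to 100%. In the whole-series list 6 of these 31 were occupied (19.4%, 7.45% to 37.5%), against 2.53% of protein-coding genes held to the same limit. In the replicates' own lists the shares were 25.8% and 19.4% (22.6% ± 4.56, SD, n = 2). None of the 41 genes under 50% was occupied in any thresholded list (upper limit 8.60%), and for the 33 with no unique word no list of any kind held a call. In the ranked whole-series list 3 of the 41 (7.32%) had a call, his-48, his-55 and his-56, against 35.2% of all protein-coding genes. For the 33 genes with no unique word a lack of binding and a lack of reads placed there cannot be told apart. For the rest of the 41 the number of reads placed is unknown.

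Genes of largely unique sequence were found on both chromosomes IV and V. Of the genes with at least 50% unique words, 4 of 8 on chromosome IV were occupied in the whole-series list (15.7% to 84.3%), 6 of 8 in replicate 1 and 4 of 8 in replicate 2. On chromosome V it was 0 of 12 in all thresholded lists (upper limit 26.5%). The lists do not say how strongly the 12 were covered by reads. Divergent partners can share a summit, so these genes are not independent and the intervals are no test between the 2 chromosomes. Those intervals overlap in the whole-series, conservative and replicate 2 lists, and not in replicate 1's (34.9% to 96.8% for chromosome IV).

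**Figure D2:**
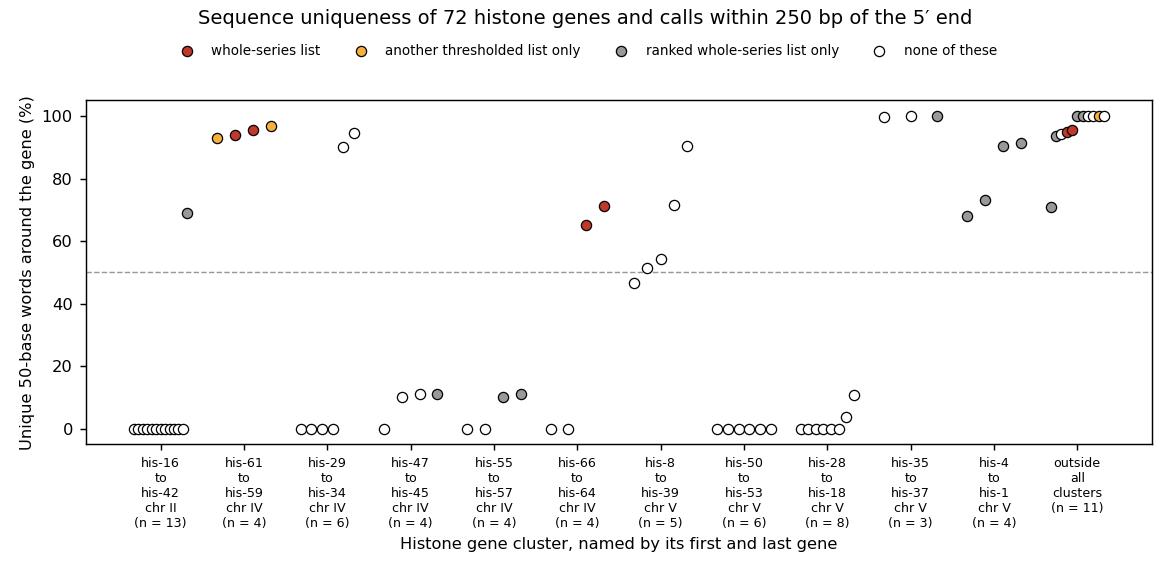
Percent of unique 50-base words around the 5' end of each of the 72 histone genes (1 circle per gene), by cluster, with the colour giving the lists that hold a summit within 250 bp; the dashed line is at 50%. Every gene with a thresholded call lies above the line, and the chromosome V clusters above it have none.

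Of the 11 clusters, 2 held an occupied gene, both on chromosome IV. The cluster of his-61 to his-59, with 93.1% to 96.7% unique words at its genes, is a whole core set of H2A, H2B, H4 and H3 in 2826 bp. It had 2 of 4 genes occupied in the whole-series list, 4 of 4 in replicate 1 and 2 of 4 in replicate 2. The cluster of his-66, his-65, his-63 and his-64 had 2 of 4 in every thresholded list. Its H3-H4 pair his-63/his-64 held the summits, and the H2B-H2A pair his-66/his-65, with 0% unique words, held none.

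The largest cluster, 13 genes on chromosome II, had 7.58% unique sequence over its span and no thresholded peak within it. The 14 genes of the 2 neighbouring chromosome V clusters that begin with his-50 and his-28 had medians of 0% and no call in any list. The cluster of his-8, his-7, his-6, his-5 and his-39 on chromosome V had 4 of 5 genes above 50% and also no call within 250 bp, even in the ranked lists. In the cluster of his-4, his-3, his-2 and his-1, with 67.9% to 91.4% unique words, all 4 genes had a ranked whole-series call and none a thresholded one. The 3 genes of the his-35, his-41 and his-37 cluster, at 99.8% to 100%, had no thresholded call either, and his-41 alone a ranked whole-series one. The ranked signals in the his-4 cluster were 48.1 at his-4 and his-3, 34.0 at his-2 and 31.0 at his-1.

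**Figure D3:**
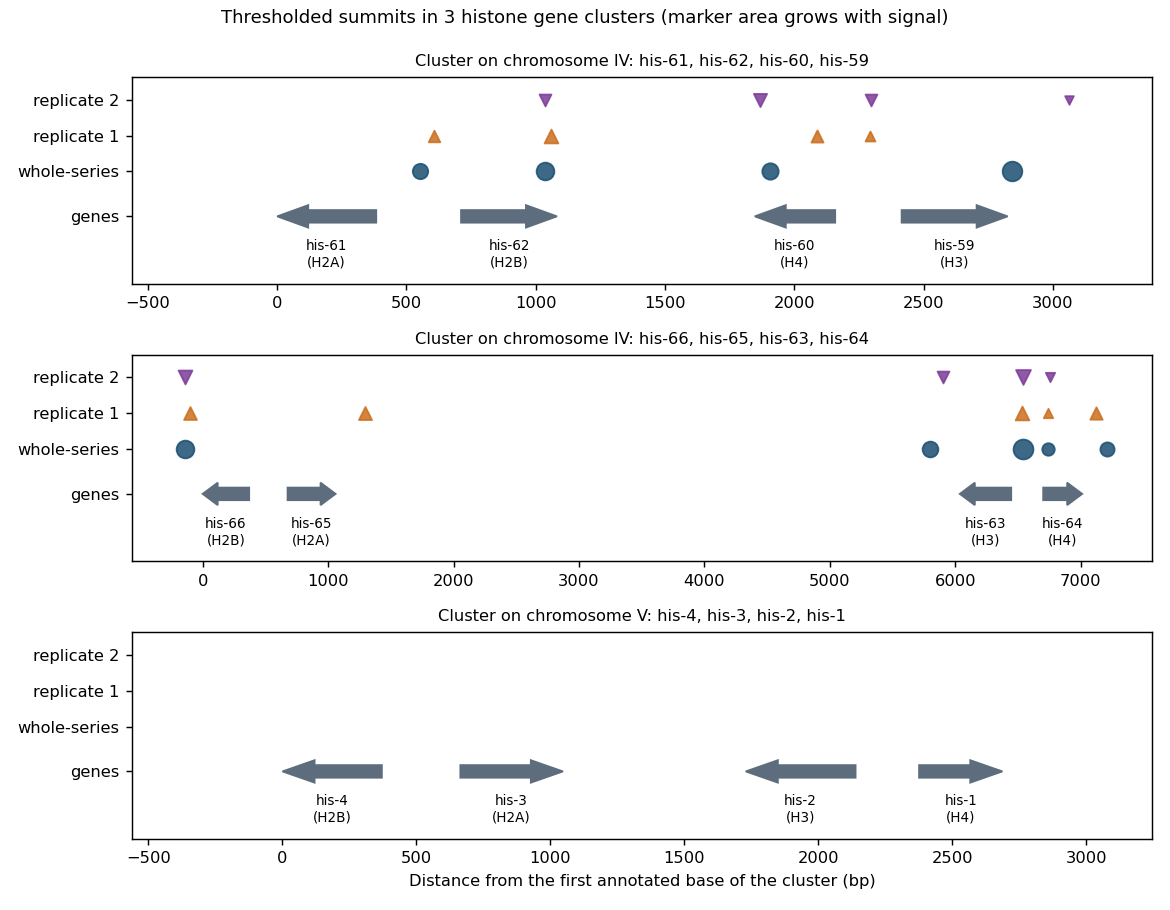
Histone genes (arrows, pointing along transcription) and thresholded summits of the whole-series list and each replicate's own list in 3 clusters, by distance in bp from the first base of the cluster. Summits lie between divergent partners and near the far ends of the genes in both chromosome IV clusters, and there is none in the chromosome V cluster.

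Among the 31 divergent pairs, a summit lay between the 5' ends of 3 in the whole-series list, 4 in replicate 1, 3 in replicate 2 and 4 in any thresholded list. There were 21 distinct sequences between pairs, and 16 pairs shared theirs with another pair. In 11 pairs at least 50% of the words between the 5' ends were unique, and all 4 called pairs were among these. The other 7 were his-31/his-32 on chromosome IV, his-8/his-7, his-6/his-5, his-35/his-41, his-4/his-3 and his-2/his-1 on chromosome V, and his-38/his-40 on chromosome X.

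On chromosome IV some H3-H4 intervals are near copies of that of his-63/his-64. The his-46/his-45 interval was 17 edits from it (93.4% identity), the his-55/his-56 interval 18 edits (93.0%) and the his-60/his-59 interval 37 edits (85.5%), with the better orientation taken. The first 2 of these have 23.9% unique words and no thresholded call, while his-60/his-59 has 100% and was called in both replicates. For the H2A-H2B pair his-61/his-62 the nearest intervals were those of his-47/his-48 and his-66/his-65 at 79.5% identity, both with 0% unique words and no thresholded call between the 5' ends.

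TATAAA stood in 2 of the 4 called intervals (his-61/his-62 and his-67/his-68), and in all 7 uncalled intervals of unique sequence. It stood in 22 of all 27 uncalled intervals. CTCCNCCT stood in 3 of the 4 called intervals, in 6 of the 7 uncalled ones of unique sequence and in 23 of the 27. In the 300 bases from 250 before to 50 after the 5' end, on either strand, TATAAA was in 47 of 72 histone genes (65.3%), against 37.9% of all protein-coding genes. CTCCNCCT, a word of histone promoters, was in 53 of 72 (73.6%), against 5.05%, and in 3 of the 6 occupied genes. CTGTTTCA, the word of worm piRNA promoters, was in none of the 72, against 2.32%. The windows of partners overlap, so their matches are shared, and the matches are a description of letters only.

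Most summits near histone genes were not at the 5' end. The whole-series list held 17 peaks with a summit within 1 kb of a histone gene, with a median signal of 124, and 12 of these were on chromosome IV. By position relative to the nearest gene 8 were downstream, 5 inside and 4 upstream. This split was not counted for all protein-coding genes, and the 1 kb search reaches well beyond the 250 bp window. The 8 downstream peaks had signals of 83.3 to 177 and a median of 116. The highest of them lay 18 bp past the 3' end of his-59 (H3, signal 177). Replicate 1's own list had no peak downstream of his-59, and replicate 2's had one of 18.5 at 237 bp. Downstream of his-66 (H2B) was a peak of 141 at 144 bp past the 3' end, of his-55 (H3) one of 124 at 99 bp, of his-16 (H2A) one of 109 at 51 bp, and of his-47 (H2A) one of 106 at 211 bp. The his-16 peak was in neither replicate's own list, and of the replicates' own lists only replicate 2's held peaks downstream of his-47, the stronger with a signal of 46.2.

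Downstream of his-66 both replicates' own lists held the peak, with signals of 65.0 in replicate 1 and 78.8 in replicate 2. The peak past his-55 had 65.7 in replicate 1 and 55.0 in replicate 2, at the same base to within 1 bp. These genes have 0% and 11.1% unique words within 250 bp of their 5' ends. Within 250 bp of the downstream summits 53.3% and 60.2% of the words were unique, and within the narrower 75 bp 100% and 95.1%. Of the 8 downstream peaks, 4 had as nearest gene one under 50%. The peak downstream of his-74 (H3.3), with a signal of 128, was in replicate 1's own list (70.8) and not in replicate 2's.

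Counted by gene, 10 of 72 histone genes (13.9%) had a whole-series summit within 250 bp of the 3' end, against 2.78% of all protein-coding genes. This count was made after the positions had been seen. Of the 10 genes 7 had none within 250 bp of the 5' end, and 13 had one at either end. Histone genes have a median length of 384 bp, against 2027 bp for all protein-coding genes, so the windows at the 2 ends lie close together or overlap.

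Inside the genes, the H2B gene his-62 had a peak of 141 at 325 bp from its 5' end, found in replicate 1 (77.8) and replicate 2 (52.7). The H2A gene his-57, annotated with a length of 1314 bp and 2 introns, had a peak of 160 at 608 bp, with 94.3 in replicate 1 and 66.5 in replicate 2. The peak 814 bp before the H3 gene his-42 (signal 152) has its summit 20 bp from the 5' end of the snRNA gene F08G2.10, so a known class of SNAPc target is nearer to it than the histone gene.

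**Figure D4:**
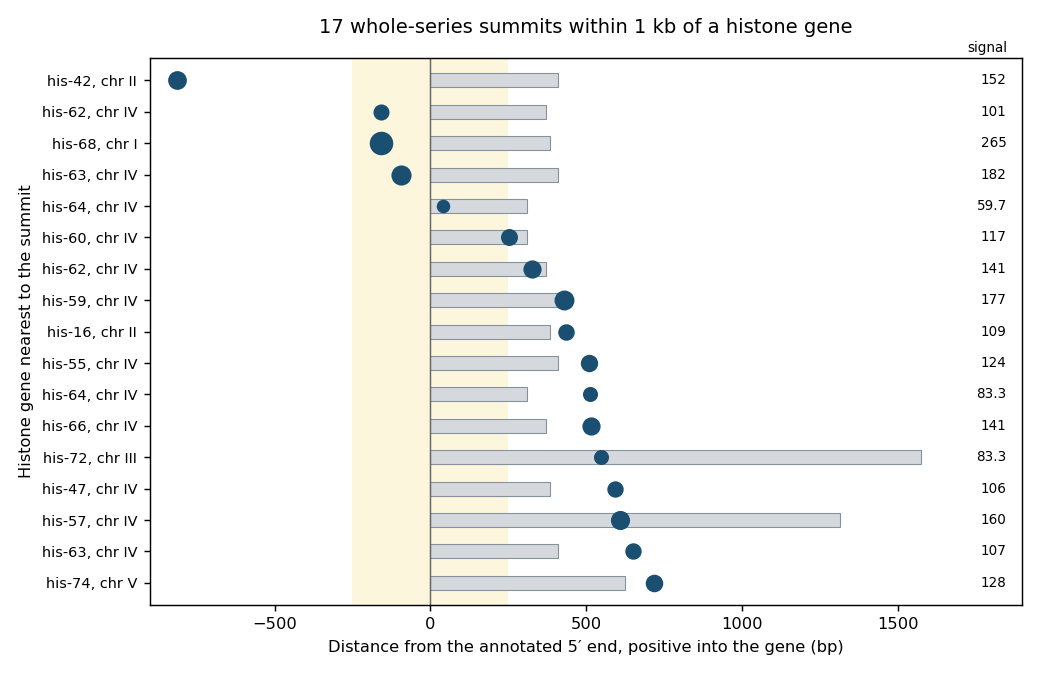
Summits of the 17 whole-series peaks within 1 kb of a histone gene, by distance in bp from the annotated 5' end of the nearest gene (positive into the gene; grey bars are the genes, the shaded band is the 250 bp window, circle area grows with signal, and signals are given at the right). Of the 17 summits 8 lie past the end of the gene, and 4 lie inside the band.

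The ranked lists hold calls at any IDR and reach far lower signals. In the ranked whole-series list 22 of 72 histone genes (30.6%, 20.2% to 42.5%) had a call within 250 bp, against 35.2% of all protein-coding genes. The replicates' ranked lists held 20 and 19. Among the 31 genes of at least 50% unique words it was 19 (61.3%, 42.2% to 78.2%), against 35.8% of protein-coding genes held to the same limit. The nearest calls of the 22 genes had a median signal of 43.2, against 29.4 for all protein-coding genes with one. Both the 22 and the 19 genes include all 9 with a thresholded call, so these values are not separate from the thresholded ones. Ranked calls are common among all genes and are given as a description.

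After his-24, the ranked genes without a thresholded call were led by his-48 (H2B, 52.2 at 215 bp inside the gene) and the pair his-4 and his-3 (48.1). The others were his-40 (H3, 38.2), his-41 (H2B, 35.8), his-2 (H3, 34.0), his-1 (H4, 31.0), his-69 (H3.3, 30.9) and his-73 (30.1). The IDR at his-2 was 0.0402, but 0.781 for the same call in the second ranked whole-series list, and it was between 0.207 and 0.783 at the others from his-48 on. Of the genes outside clusters, his-38 and his-71 had no ranked call within 250 bp in any list, his-74 none either, and his-70 one in replicate 1 (30.2) and one in the second whole-series list (21.6).

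Of 27 other genes of the histone pathway (linker histones, variants, chaperones, message processing and histone methylation), 26 were in the annotation. Whole-series summits stood at 3 (11.5%, exact 95% interval 2.45% to 30.2%), against 2.48% of all protein-coding genes. They were at the linker histone genes hil-2, 54 bp inside the gene, and hil-4, 12 bp before it, and lin-53, a histone-binding WD-repeat gene, 229 bp before it. lin-53 alone of these was in all 4 thresholded lists, and the genes hil-2 and hil-4 were in neither replicate's own list. None was at cdl-1, the stem-loop binding protein, at htz-1 (H2A.Z), whose nearest whole-series summit lay 314 bp before it and which replicate 1's own list alone held, or at hcp-3 (the centromeric H3).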

How the data were processed

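Anti-GFP ChIP-seq of SNPC-1.2-eGFP was done in 2 samples, biological replicates of 1 group, with fragments of 200 to 800 bp per the labels. The authors deposited 8 peak lists on assembly ce11: per replicate and for the whole series, ranked lists of 20 columns and thresholded lists. Per the deposited notes, lists were made from filtered alignments and 1 further undescribed file, and thresholded lists used 1 more. The notes name no aligner or peak caller (not given in the sources used here). As deposited, the signal is a peak caller's value without a stated scale. The score as deposited equals 125 × log2(1/IDR), capped at 1000, from the values. The ranked lists as deposited also give the −log10 of the IDR, capped at 5, and 8 columns of signal in the sets of calls compared, which were not used. From the values, all 2829 whole-series thresholded peaks are in the second ranked list, and the ranked list quoted compares the true replicates. Mitochondrial peaks were left out.

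Genes came from Ensembl release 115 (WBcel235, the same assembly), and symbols, products and sequence from RefSeq, which matched 72 of 72 members. RefSeq symbols were used because 36 members share an Ensembl name. The 5' end of 65 members is the start codon. A gene was occupied when the nearest summit was within 250 bp. Uniqueness is the percent of 50-base words, on either strand of the genome, that occur once in the window around a 5' end. Stem-loops have 6 base pairs and a loop of 4 bases. The loop rule as first set found none and was widened after that was seen. Shares carry exact 95% (Clopper-Pearson) intervals for counting of genes only. No group comparison or set test was made. Python 3.11.15, numpy 2.4.6, pandas 2.3.3 and scipy 1.17.1 were used, and word counting and the summit search were tested on simulated data.

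Named genes were every member called in a thresholded list with its partner, the 10 highest ranked signals among the rest, up to 3 genes just outside the window, and the members outside clusters. Genes at downstream and inside peaks were named after their positions were seen. The members, lists and settings were chosen with earlier results of these data known. Alternatives were other lists, limits, windows, word lengths and cluster gaps, 1 gene per locus, and each replicate left out.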

Additional observations from a re-analysis of the deposited data

How the results depend on the processing

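Of 59 alternative values, 30 stayed within the spread between replicates (for counts, within 1.5 times) and 29 moved. A change of direction was not checked for. The share of histone genes occupied was 5.56% at an IDR of at most 0.001, 2.78% for the 500 highest peaks, 2.78% within 100 bp, 12.5% within 500 bp and 13.9% at the 3' end, a setting added later; for all protein-coding genes it was 1.18%, 0.386%, 0.861% and 4.26% under the first 4, and 3.77% for any overlap of the peak. Separate peaks numbered 2, 1, 2 and 7, and occupied pairs 1, 1 and 5 for the 500 highest peaks, 100 bp and 500 bp. The signal value, taken as the median percent of peaks with a lower signal (61.3%), was 42.2% for 100 bp. For the 500 highest peaks it was 39.6%, counted among those 500 only, for 1 peak that stood above 89.3% of the whole-series list. With 5 kb gaps 3.51% of clustered genes were occupied. Ranked calls numbered 10 within 100 bp and 11 at an IDR of at most 0.05. The causes were not tested beyond the construction of each setting.

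From each replicate's own list, the share of histone genes ran from 8.33% to 11.1%, of all protein-coding genes from 1.22% to 1.54%, of unique histone genes from 19.4% to 25.8%, and the signal value from 10.8% (replicate 1) to 36.8% (replicate 2). Separate peaks ran from 4 to 6, pairs from 3 to 4 and ranked calls from 19 to 20. Without replicate 1, his-61 and his-62 lose their call, and his-60 and his-59 gain one that the whole-series list lacks. With the stem-loop rule as first set, 0 genes matched. No paired analysis was possible because there was 1 group. Unknown read depth limits every absence of a peak.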
